A study of Saccharomyces cerevisiae with 8 samples.

Results

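Capped and otherwise ligatable 5' ends of yeast RNA were counted base by base, and the 5' ends described here are those that lie on the mitochondrial genome. They were taken as every position of the deposited table on chromosome number 17, which gave 2234 of 1643818 positions and strands, with 9062 tags over 8 libraries. Each position was given, by strand, to 1 of the 46 mitochondrial genes of the R64 annotation, counted from 200 nt upstream of the gene to its end, or was called intergenic. The strain was BY4741, a MATa laboratory yeast that carries the alleles his3delta1, leu2delta0, ura3delta0 and met15delta0 in all groups, grown at 30 °C to mid-log phase in rich medium with 2% glucose. From 2 biological replicates, total RNA was stripped of free 5' phosphates with calf intestinal phosphatase and then divided into aliquots, so every library shares that step. The groups, with 2 libraries each, were Decapping Pyrophosphohydrolase, Cap-Clip (an acid pyrophosphatase), TAP (tobacco acid pyrophosphatase) and no enzyme. After ligation of an oligonucleotide to the free ends, RNA with poly(A) was kept and the bases beside the ligation were read. All groups come from 1 strain and 1 growth condition, so the comparison is between enzymes and not between states of the cell. As bulk measurements, the tags cannot tell apart fewer cells and less RNA per cell.

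The mitochondrial genome of yeast is transcribed by a dedicated single-subunit RNA polymerase, Rpo41, with its partner Mtf1, from promoters that share a conserved nonanucleotide whose last base is the first base of the RNA. The long primary transcripts are cut into the large (21S) and small (15S) ribosomal RNAs, messenger RNAs and transfer RNAs. The mitochondrial RNase P, whose RNA part is encoded by RPM1, makes the 5' ends of the transfer RNAs. Transcripts of yeast mitochondria do not receive the methylguanosine cap of nuclear messenger RNAs and, unlike these, are not known to carry long poly(A) tails. How mitochondrial RNAs passed the poly(A) selection was not tested. The mitochondrial genome has 42.2% A and 40.7% T on its plus strand.

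Depth set what could be seen. The libraries held 1789278 and 3479399 tags in all with Decapping Pyrophosphohydrolase, 1268757 and 8475181 with Cap-Clip, 10739034 and 1747139 with TAP, and 736236 and 80721 without enzyme. Of these, 643 and 1393 were mitochondrial with Decapping Pyrophosphohydrolase, 489 and 2979 with Cap-Clip, 2034 and 223 with TAP, and 1263 and 38 without enzyme. The no-enzyme replicates stand apart from each other: replicate 2 is so shallow that 0 tags at an end there allow up to 37.2 CPM (counts per 1e+06 tags), and replicate 1 has the highest mitochondrial share of all 8. Values in CPM below are relative to all tags of a library, and the intervals and limits given allow for the error of counting alone.

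The ends that turned out strongest fell at 2 kinds of landmark, and their sequences are given first. Of the 14 exact copies of the nonanucleotide ATATAAGTA in the genome, 11 on the plus and 3 on the minus strand, 7 had a tag exactly at their last base and 6 had at least 10 tags there. The following windows of 41 bases, read 5' to 3' from the R64 genome (RefSeq), show these 6 sites, with the nonanucleotide in capitals and the tagged base as its last letter. They show that the same motif stands at 2 ribosomal RNA genes, upstream of messenger RNA genes and at replication origins.
21S_RRNA end at -1, MT:57988-58028, plus strand: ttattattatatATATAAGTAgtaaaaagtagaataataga
15S_RRNA end at -76, MT:6450-6490, plus strand: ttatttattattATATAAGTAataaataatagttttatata
intergenic end at 46079, MT:46059-46099, plus strand: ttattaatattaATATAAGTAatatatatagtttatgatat
intergenic end at 32217, MT:32197-32237, plus strand: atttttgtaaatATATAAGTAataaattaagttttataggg
intergenic end at 13357, MT:13337-13377, plus strand: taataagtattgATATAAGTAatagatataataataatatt
intergenic end at 54840, MT:54820-54860, minus strand: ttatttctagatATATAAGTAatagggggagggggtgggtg
The exact motif, searched on both strands with no overlap between copies, occurs in 0.539% of all mitochondrial windows of 41 bases and in the windows of 4 of the 15 strongest ends. With up to 1 mismatch it is in 19.4% of all windows and in 5 of those 15.

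The other landmark was the first base of a transfer RNA. The windows below show the strongest such ends with the transfer RNA in capitals, so that the first capital is the tagged base. The last of them, tM(CAU)Q1, is shown because its strongest end lies at the third base, which is the middle letter of its window.
tE(UUC)Q end at +1, MT:35353-35393, plus strand: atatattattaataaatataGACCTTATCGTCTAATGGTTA
tD(GUC)Q end at +1, MT:68302-68342, plus strand: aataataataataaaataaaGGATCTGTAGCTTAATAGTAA
tQ(UUG)Q end at +1, MT:66190-66230, plus strand: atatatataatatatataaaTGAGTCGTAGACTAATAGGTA
tV(UAC)Q end at +1, MT:78513-78553, plus strand: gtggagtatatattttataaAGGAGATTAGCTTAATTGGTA
tW(UCA)Q end at +1, MT:9354-9394, plus strand: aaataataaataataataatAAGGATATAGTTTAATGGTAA
tN(GUU)Q end at +1, MT:71413-71453, plus strand: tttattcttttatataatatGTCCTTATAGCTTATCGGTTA
tM(CAU)Q1 end at +3, MT:72612-72652, plus strand: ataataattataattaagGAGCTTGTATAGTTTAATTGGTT

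The tags were concentrated at few positions above a thin spread. Of the 2234 positions, 1560, or 69.8%, had 1 tag in all 8 libraries together, and 50 had at least 10. The 10 strongest ends, ranked by mean CPM over the 6 enzyme-treated libraries, were 7 transfer RNA first bases and 3 nonanucleotide ends, and they held 52.6% of all mitochondrial tags. Among the 15 strongest there were 8 first bases of transfer RNAs, 3 nonanucleotide ends and 4 others. For 2233 of the positions the following 42 bases occur once in the genome.

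By class, 21S_RRNA held 5051 tags, or 55.7% of the total, transfer RNA genes 1881 (20.8%), protein genes 1265 (14%), 15S_RRNA 638 (7.04%), intergenic positions 224 (2.47%) and RPM1 3 tags. Tags were seen at 36 of the 46 genes, and 22 genes had at least 10. The 10 genes with 0 tags were ATP8 and 9 reading frames nested in a longer gene, to which their tags were given. Nearly every tag was on the plus strand, which carries all genes but 1: the minus strand had 30 tags at 11 positions, 18 of them at the nonanucleotide at 54840, inside the replication origin ORI3. The position of the 200 nt limit had little weight, as 10 tags lay 151 to 200 nt upstream of a gene and 0 lay 201 to 250 nt upstream.

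**Figure D1:**
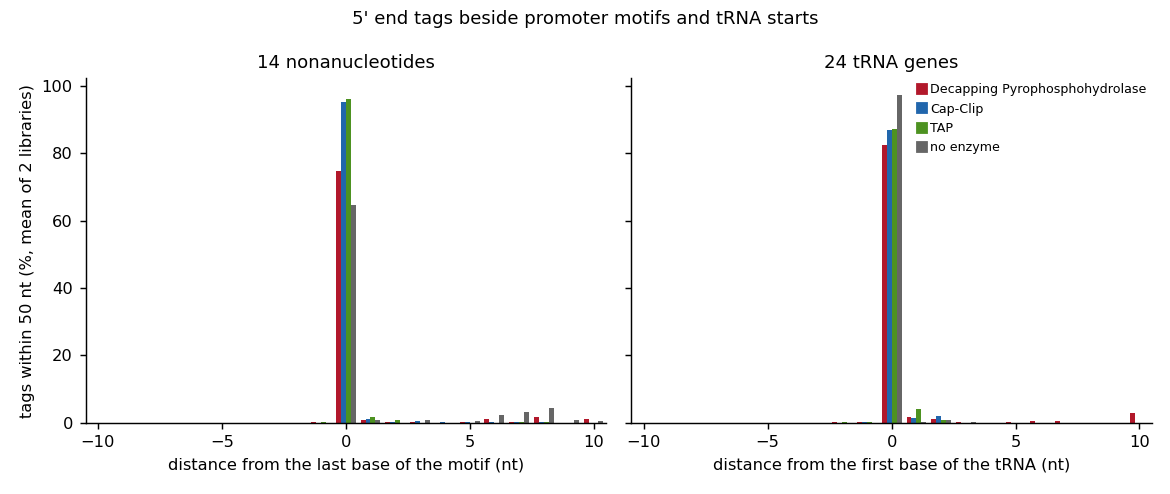
Tags by distance (nt) from the last base of the 14 nonanucleotides (left) and from the first base of the 24 transfer RNA genes (right), as a percentage of the tags within 50 nt on the same strand, with 1 bar for each group (mean of 2 libraries), drawn up to 10 nt to either side. Over all libraries, 91.4% of the tags near a nonanucleotide and 87.3% of those near a transfer RNA start lay exactly at the landmark.

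Most tags near a landmark lay exactly at its base. Within 50 nt of the 14 nonanucleotides there were 3733 tags, of which 3413 lay at the last base, 5 at the base before it and 50 at the base after it. Within 50 nt of the 24 transfer RNA starts there were 1880 tags, of which 1642 lay at the first base, 6 just before and 39 just after. The nonanucleotide ends made up 37.7% of all mitochondrial tags, although such last bases are 0.00816% of the genome's positions on both strands. The plot of tags by distance shows 1 peak at 0 in each panel for each of the 4 groups.

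The strongest end of the mitochondrial genome was the start of 21S_RRNA, the large ribosomal RNA, 1 nt upstream of the annotated start at MT:58008 on the plus strand, with 2931 tags. It had 15.6 and 76.5 CPM with Decapping Pyrophosphohydrolase, 231 and 172 CPM with Cap-Clip, 71.5 and 46.9 CPM with TAP, and 40.7 and 74.3 CPM without enzyme. Both Cap-Clip libraries were above all 6 others, and the Decapping Pyrophosphohydrolase, TAP and no-enzyme libraries overlapped. The next base, the annotated first base, had 45 tags. Most tags therefore lay 1 nt before the annotated first base.

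The end of 15S_RRNA, the small ribosomal RNA, lay 76 nt upstream of the annotated start, at MT:6470, with 318 tags. It had 4.47 and 12.1 CPM with Decapping Pyrophosphohydrolase, 25.2 and 18.3 CPM with Cap-Clip, 6.15 and 4.58 CPM with TAP, and 8.15 and 12.4 CPM without enzyme, where the last value is 1 tag. Here too the Cap-Clip libraries were above all others. The small ribosomal RNA is known to be made as a precursor that is trimmed at its 5' end. A second group of tags stood around the annotated start: 144 tags at 21 positions between 20 nt before and 30 nt after it, with 22, 24 and 25 tags at the bases +8, +9 and +10 and 9 tags at +1. Around this start there were 11.7 and 11.8 CPM with Decapping Pyrophosphohydrolase, 3.94 and 3.42 CPM with Cap-Clip, 1.86 and 0.572 CPM with TAP, and 35.3 and 12.4 CPM without enzyme. The no-enzyme libraries were highest and the TAP libraries lowest, with no overlap between any 2 of the 4 groups, though the second value of both is 1 tag.

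The remaining nonanucleotides were weaker. The site at 46079, inside the origin ORI6 and 644 nt upstream of OLI1, which encodes subunit 9 of the ATP synthase, had 88 tags, in 7 and 16 tags with Decapping Pyrophosphohydrolase, 2 and 23 with Cap-Clip, 30 and 0 with TAP, and 10 and 0 without enzyme. The site at 32217, beside the origin ORI2, had 32 tags, and the site at 13357, 461 nt upstream of the cytochrome oxidase gene COX1, had 24. The site at 54840 on the minus strand had 18 tags, in 3 and 1 tags with Decapping Pyrophosphohydrolase, 0 and 4 with Cap-Clip, 9 and 1 with TAP, and 0 in both no-enzyme libraries. A seventh site, at 34886, 487 nt upstream of the glutamate transfer RNA gene, had 2 tags, and the other 7 exact copies had 0. Even the best of these sites held 88 tags, against 2931 at 21S_RRNA.

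**Figure D2:**
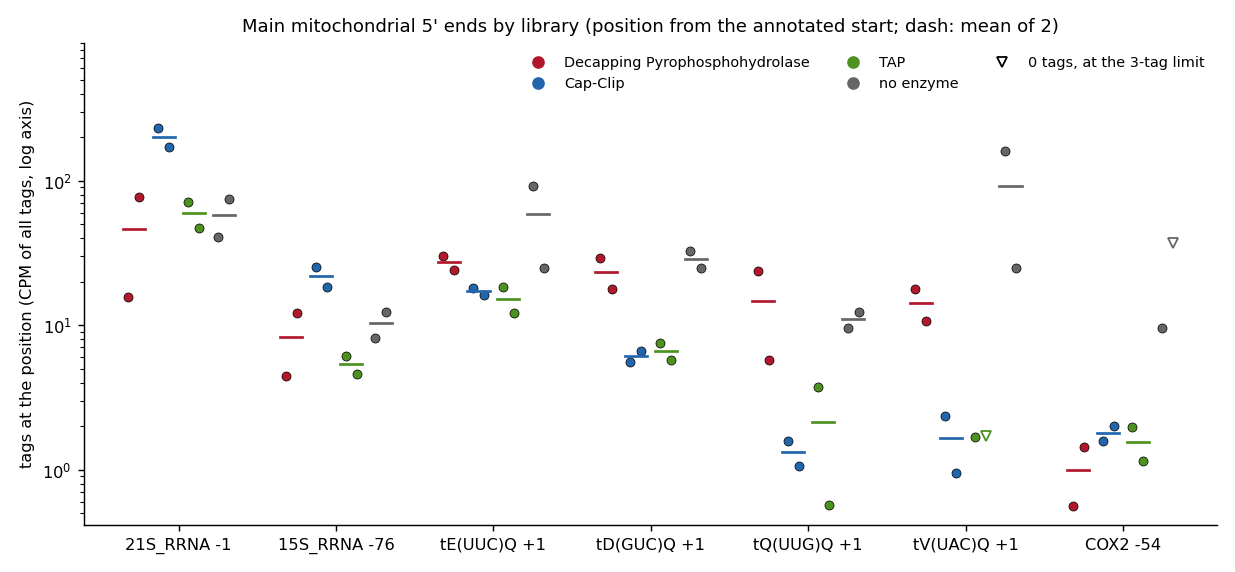
CPM of all tags (log axis) at 7 mitochondrial 5' ends in each of the 8 libraries, with groups in the order Decapping Pyrophosphohydrolase, Cap-Clip, TAP and no enzyme. Dots are libraries, dashes are the mean of 2 libraries (drawn where both have a tag), and open triangles are libraries with 0 tags, placed at the value that 3 tags would give. Cap-Clip is highest at the 21S_RRNA and 15S_RRNA ends, at 231 and 25.2 CPM, while Decapping Pyrophosphohydrolase and no enzyme are highest at tD(GUC)Q, tQ(UUG)Q and tV(UAC)Q. At these 3 ends no-enzyme replicate 2 held 2, 1 and 2 tags.

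Inside the 21S_RRNA gene the tags were spread out. Apart from the end at -1 there were 2120 tags at 1091 positions, 686 of which had 1 tag. These other positions summed to 85.5 and 129 CPM with Decapping Pyrophosphohydrolase, 45.7 and 71.6 CPM with Cap-Clip, 29.1 and 24.0 CPM with TAP, and 667 and 112 CPM without enzyme. The order is not that of the start: TAP was lowest, and the highest value, in no-enzyme replicate 1, came with 30 tags at the start and 491 elsewhere. The highest internal position, with 52 tags, was the last base of exon 1, at MT:60724, where the gene's only intron, which holds the frame of the homing endonuclease SCEI, begins at the next base. This end had 3.35 and 6.32 CPM with Decapping Pyrophosphohydrolase, 0 and 1.77 CPM with Cap-Clip, 0.559 and 0 CPM with TAP, and 4.07 and 0 CPM without enzyme. Its window is shown with exon bases in capitals, so the tagged base is the last capital.
21S_RRNA end at the last base of exon 1, MT:60704-60744, plus strand: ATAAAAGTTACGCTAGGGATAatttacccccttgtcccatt
Per length, exon 1 had 726 tags per kb, the intron 108 tags per kb (123 tags in 1143 nt) and exon 2 31.0 tags per kb (18 tags in 580 nt), all over 8 libraries.

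Transfer RNA genes carried most of their tags at their first base. All 24 genes had tags in their span or upstream window, 20 had a tag at the first base, and in 19 that was the strongest position. Of the 15 genes with at least 10 tags, 14 were strongest there, and over all genes 1642 of 1881 tags, or 87.3%, lay at the first base. By library this share was 84.0% and 80.8% with Decapping Pyrophosphohydrolase, 88.9% and 85.3% with Cap-Clip, 90.4% and 84.0% with TAP, and 94.8% and 100% without enzyme, where the last is 9 of 9 tags. The exception, tM(CAU)Q1 for methionine, had 26 of its 28 tags at the third base.

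The individual transfer RNAs were far apart in level. The glutamate transfer RNA tE(UUC)Q, at MT:35373, had 585 first-base tags: 30.2 and 24.1 CPM with Decapping Pyrophosphohydrolase, 18.1 and 16.0 CPM with Cap-Clip, 18.3 and 12.02 CPM with TAP, and 92.4 and 24.8 CPM without enzyme. The aspartate transfer RNA tD(GUC)Q, at MT:68322, had 294: 29.1 and 17.8 CPM with Decapping Pyrophosphohydrolase, 5.52 and 6.61 CPM with Cap-Clip, 7.54 and 5.72 CPM with TAP, and 32.6 and 24.8 CPM without enzyme. In both, the Decapping Pyrophosphohydrolase libraries lay above those of Cap-Clip and TAP, which overlapped each other.

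The valine transfer RNA tV(UAC)Q, at MT:78533, had 217 first-base tags and was far apart between groups. It had 17.9 and 10.6 CPM with Decapping Pyrophosphohydrolase, 2.36 and 0.944 CPM with Cap-Clip, 1.68 and 0 CPM with TAP, and 159 and 24.8 CPM without enzyme. No-enzyme replicate 1 alone gave 117 of these tags. The glutamine transfer RNA tQ(UUG)Q, at MT:66210, had 23.5 and 5.75 CPM with Decapping Pyrophosphohydrolase, 1.58 and 1.06 CPM with Cap-Clip, 3.72 and 0.572 CPM with TAP, and 9.51 and 12.4 CPM without enzyme. The Decapping Pyrophosphohydrolase and no-enzyme libraries of both genes lay above those of Cap-Clip and TAP. No-enzyme replicate 2 held only 2 tags at tV(UAC)Q and 1 tag at tQ(UUG)Q.

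Other transfer RNAs had fewer tags. The tryptophan transfer RNA tW(UCA)Q had 93 first-base tags, 13 and 12 with Decapping Pyrophosphohydrolase, 1 and 26 with Cap-Clip, 32 and 0 with TAP, and 9 and 0 without enzyme. The asparagine transfer RNA tN(GUU)Q had 79, of which 3 and 12 came with Decapping Pyrophosphohydrolase, 2 and 22 with Cap-Clip, 36 and 2 with TAP, and 2 and 0 without enzyme. Those for cysteine (tC(GCA)Q) and lysine (tK(UUU)Q) had 43 first-base tags each and those for serine 41 (tS(UGA)Q2) and 27 (tS(GCU)Q1). Phenylalanine (tF(GAA)Q) had 30 and tyrosine (tY(GUA)Q) 25. At the low end, tP(UGG)Q, tR(ACG)Q2, tM(CAU)Q1 and tM(CAU)Q2 had 0 first-base tags. Tags at transfer RNA genes therefore came mostly from 6 genes with over 50 first-base tags each.

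**Figure D3:**
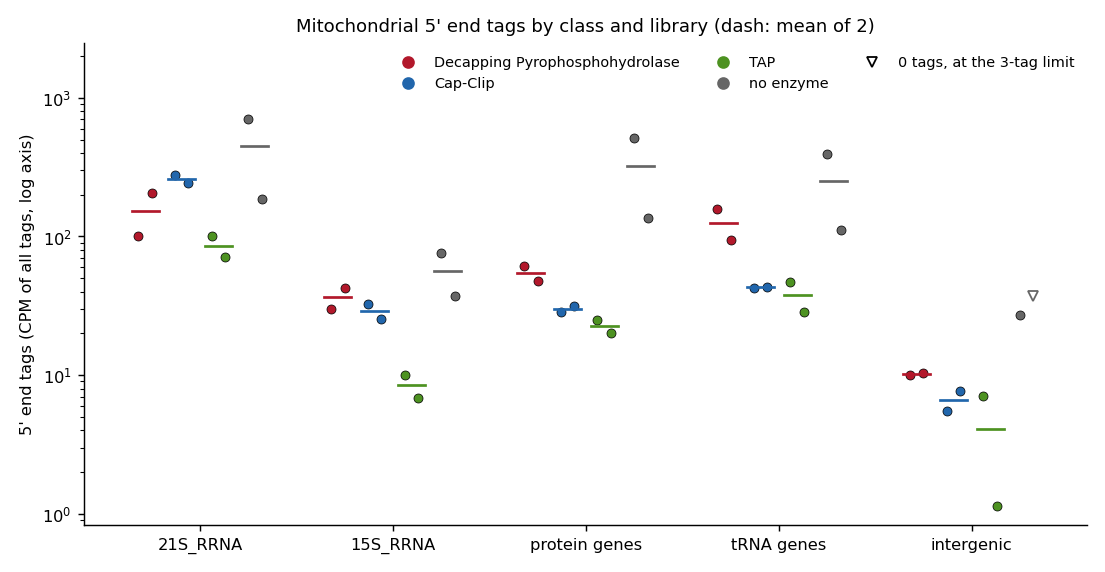
CPM of all tags (log axis) in each class of the mitochondrial genome, by library, with groups in the order Decapping Pyrophosphohydrolase, Cap-Clip, TAP and no enzyme. Dots are libraries, dashes are the mean of 2, and the open triangle is a library with 0 tags placed at its 3-tag limit; no-enzyme replicate 1 is the highest dot at 21S_RRNA (708 CPM), protein genes (509 CPM) and transfer RNA genes (394 CPM).

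Protein genes had few defined 5' ends. COX1, for subunit 1 of cytochrome oxidase, had 778 tags: 24.0 and 25.6 CPM with Decapping Pyrophosphohydrolase, 21.3 and 21.4 CPM with Cap-Clip, 16.9 and 12.02 CPM with TAP, and 306 and 124 CPM without enzyme. The no-enzyme libraries were above all 6 enzyme-treated ones. Within its span, including the nested frame AI5_BETA, 640 tags lay in the 7 introns, at 488 positions, and 137 in the 8 exons. The introns belong to the self-splicing groups I and II, and several encode maturases or endonucleases. Intron 1 had 298 tags, or 122 tags per kb, the most per length of the introns, and intron 6 had the fewest, with 7 tags or 4.46 tags per kb.

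Some ends of COX1 lay at exon borders. There were 28 tags at the last base of exon 5 (MT:22246), 32 tags 3 nt before exon 4 (MT:20505) and 12 tags 1 nt before exon 6. The windows below show the 2 stronger ones, with exon bases in capitals and the tagged base in the middle.
COX1 end at the last base of exon 5, MT:22226-22266, plus strand: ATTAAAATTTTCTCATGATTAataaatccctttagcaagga
COX1 end 3 nt before exon 4, MT:20485-20525, plus strand: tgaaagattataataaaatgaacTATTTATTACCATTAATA
The end before exon 4, named after its values were seen, had 0 and 0.287 CPM with Decapping Pyrophosphohydrolase, 0.788 and 0.590 CPM with Cap-Clip, 0.931 and 0.572 CPM with TAP, and 17.7 and 12.4 CPM without enzyme, where these are 13 tags and 1 tag. The no-enzyme libraries were higher there than all 6 enzyme-treated ones.

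OLI1 had 356 tags: 30.2 and 17.0 CPM with Decapping Pyrophosphohydrolase, 4.73 and 5.90 CPM with Cap-Clip, 4.94 and 6.87 CPM with TAP, and 166 and 0 CPM without enzyme. Its tags were scattered, with 263 at 97 positions of its short span, none of which had more than 9, and 93 in the 200 nt upstream. The Decapping Pyrophosphohydrolase libraries lay above those of Cap-Clip and TAP. The no-enzyme replicates had 122 and 0 tags, and as 0 tags allow up to 37.2 CPM, replicate 2 cannot be placed against the other groups.

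COX2, for subunit 2 of cytochrome oxidase, had the opposite form, 1 sharp end. Of its 71 tags, 55 lay 54 nt upstream of the start codon, at MT:73704, and 10 in its coding region. COX2 messenger RNA is known for a short leader. This end had 0.559 and 1.44 CPM with Decapping Pyrophosphohydrolase, 1.58 and 2.01 CPM with Cap-Clip, 1.96 and 1.14 CPM with TAP, and 9.51 and 0 CPM without enzyme, where the 0 allows up to 37.2 CPM. No nonanucleotide is in its window, which is shown with the tagged base in the middle and no part in capitals.
COX2 end at -54, MT:73684-73724, plus strand: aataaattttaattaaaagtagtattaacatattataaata

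The other protein genes had few tags. COB, for cytochrome b, had 36 tags, 23 in its 6 exons and 13 in its 5 introns. ATP6, for a subunit of the ATP synthase, had 13, COX3, for subunit 3 of cytochrome oxidase, had 3, and VAR1, for a protein of the mitochondrial ribosome, had 2. ATP8, another ATP synthase subunit, had 0. The RNase P RNA gene RPM1 had 3 tags. Of the 11 frames for maturases and endonucleases, those that share the start of COX1 or COB cannot be told apart from the host gene and were counted with it. AI5_BETA was given 5 tags and Q0255 was given 1, and 6 tags of 21S_RRNA lay within the span of SCEI.

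In the comparison of Cap-Clip with TAP, the mitochondrial ribosomal RNAs were the only features called higher. Of the 46 mitochondrial genes, 10 passed the filter on low counts, and 2 of these rose with Cap-Clip, 21S_RRNA and 15S_RRNA. Over all features tested, 0.0228% were higher, which is these 2 of 8785. 21S_RRNA had 277 and 244 CPM with Cap-Clip and 101 and 71.0 CPM with TAP, and rose by 1.63 ± 0.23 (log2, SE; edgeR's quasi-likelihood test, adjusted p = 0.00126). 15S_RRNA had 32.3 and 25.5 CPM with Cap-Clip and 9.96 and 6.87 CPM with TAP, and rose by 1.62 ± 0.24 (edgeR, adjusted p = 0.0015). In both genes the Cap-Clip libraries lay above the TAP libraries.

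Resolved to single bases, the calls lay at 2 promoter starts, among the few positions that could be tested. The other positions of 21S_RRNA were higher too, at 45.7 and 71.6 CPM with Cap-Clip and 29.1 and 24.0 CPM with TAP. With 0 nt upstream, where its end at -1 is left out, 21S_RRNA was still called. Among 7 mitochondrial positions tested, 2 were called higher with Cap-Clip, where 0.0068% of all positions were: the 15S_RRNA end at -76 (1.88 ± 0.32, edgeR, adjusted p = 0.0174) and the 21S_RRNA end at -1 (1.79 ± 0.33, adjusted p = 0.0493). Summed over all nonanucleotides, the ends had 261 and 195 CPM with Cap-Clip and 83.9 and 52.7 CPM with TAP, a rise of 1.74 ± 0.30 (edgeR, adjusted p = 0.011). This sum and that of transfer RNA first bases were added after the data were seen, so their tests reuse the data that led to them. Of the 3413 tags in the nonanucleotide sum, 2931 lay at the 21S_RRNA end, so it is no separate result. The first bases of transfer RNAs had 37.8 and 36.9 CPM with Cap-Clip and 42.3 and 24.0 CPM with TAP, so the groups overlapped. The median over the 6 transfer RNA genes tested was -0.09 and that over all features 0.03, on the log2 scale. The calls at the genes are not firm: with all 8 libraries in 1 fit neither was called (adjusted p = 1 for 21S_RRNA and 0.182 for 15S_RRNA). The call at 21S_RRNA ended with DESeq2 (adjusted p = 0.841) and without Cap-Clip replicate 1 (0.0683), and that at 15S_RRNA ended without TAP replicate 1 (0.126) and with 0 nt upstream, where its main end is left out (0.701). The sum of nonanucleotide ends and both single ends were not called by DESeq2, nor were both single ends without TAP replicate 1. The call on the sum also ended with all 8 libraries (adjusted p = 0.977), with positions of at least 2 tags (0.145), without TAP replicate 2 (0.0586) and without Cap-Clip replicate 1 (0.163).

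**Figure D4:**
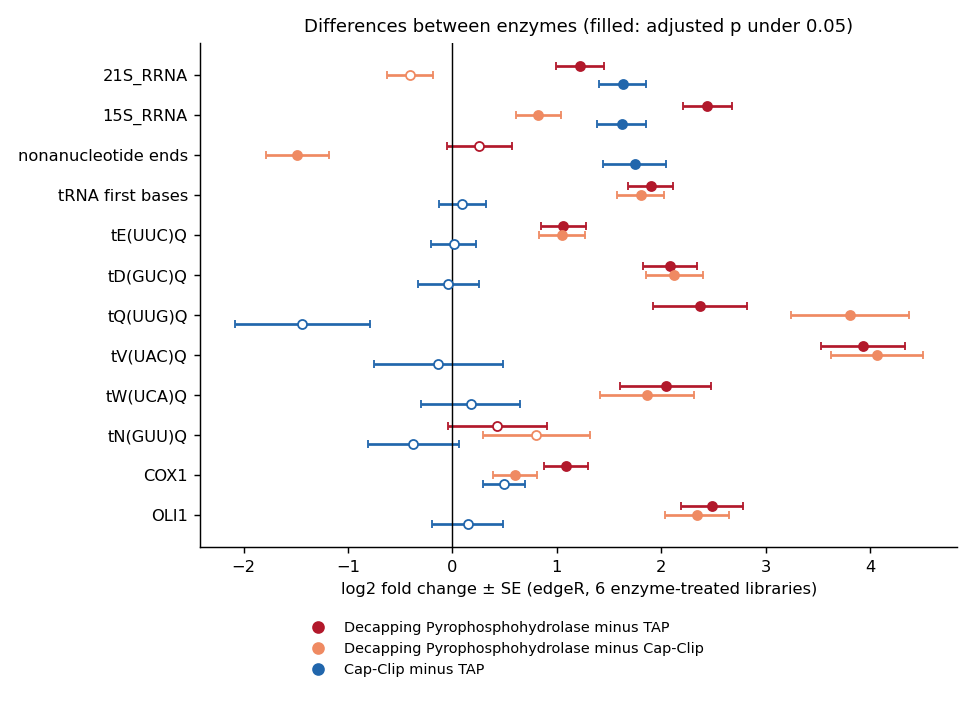
Log2 fold change ± SE (edgeR, 6 enzyme-treated libraries) of 12 mitochondrial genes and sums in the 3 pairs of enzymes, with filled dots where the adjusted p is under 0.05. Decapping Pyrophosphohydrolase is to the right of 0 for transfer RNAs (not called at tN(GUU)Q; tV(UAC)Q and tW(UCA)Q were tested only because these libraries are high) and OLI1 against both other enzymes, and Cap-Clip minus TAP is to the right of 0 at 21S_RRNA (1.63), 15S_RRNA (1.62) and the nonanucleotide ends (1.74). The sums were added after the data were seen, and tQ(UUG)Q reached the filter's level in no Cap-Clip library.

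Decapping Pyrophosphohydrolase gave more mitochondrial tags than TAP at most genes tested. Of 10 mitochondrial genes tested, 9 were higher and 0 lower, where 24.0% of all features were higher and 22.9% lower. The 9 were 15S_RRNA, 21S_RRNA, COX1, OLI1 and 5 of the 6 transfer RNA genes tested, and the gene not called was tN(GUU)Q. To pass the filter on low counts a gene or position needed 3.796 CPM in 2 of the 6 libraries. The genes tW(UCA)Q and tV(UAC)Q reached it only in the Decapping Pyrophosphohydrolase libraries, so they could only be tested if high there, and of the 8 other genes 7 were higher. 15S_RRNA had 30.2 and 42.8 CPM with Decapping Pyrophosphohydrolase, against 9.96 and 6.87 CPM with TAP, and rose by 2.44 ± 0.24 (log2, SE; edgeR, adjusted p = 4.02e-08). OLI1 rose by 2.49 ± 0.30 (edgeR, adjusted p = 5.89e-07) and COX1 by 1.09 ± 0.21 (adjusted p = 0.000187). 21S_RRNA, with 101 and 205 CPM with Decapping Pyrophosphohydrolase, against 101 and 71.0 CPM with TAP, rose by 1.22 ± 0.23 (edgeR, adjusted p = 0.00013). This call ended with all 8 libraries in the fit (adjusted p = 0.469), and the rise was 0.58 without Decapping Pyrophosphohydrolase replicate 2.

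The same genes seen by end gave another order. Of 7 mitochondrial positions tested, 6 were called higher with Decapping Pyrophosphohydrolase than with TAP, where 19.6% of all positions were. The first bases of tV(UAC)Q and tQ(UUG)Q and the site at 46079 passed the filter only through the Decapping Pyrophosphohydrolase libraries, and of the 4 other positions 3 were higher. The aspartate and glutamate transfer RNA first bases rose by 2.08 ± 0.29 and 1.11 ± 0.24 (edgeR, adjusted p = 6.24e-07 and 0.000435). The 15S_RRNA end at -76 rose by 1.08 ± 0.37 (edgeR, adjusted p = 0.0192), and this call ended when library totals were used without TMM scaling, and with DESeq2. As a description, the fold change was 3.69 at tV(UAC)Q +1, 2.46 at tQ(UUG)Q +1 and 1.38 at 46079. Without TAP replicate 1 it was 8.79 at tV(UAC)Q +1, where TAP replicate 2 has 0 tags, and 4.71 at tQ(UUG)Q +1, where it has 1 tag. Without Decapping Pyrophosphohydrolase replicate 1 it was 1.27 at tQ(UUG)Q +1. The 21S_RRNA end at -1 was not called, at 15.6 and 76.5 CPM with Decapping Pyrophosphohydrolase and 71.5 and 46.9 CPM with TAP. The call at the 15S_RRNA end also ended without TAP replicate 1 (adjusted p = 0.121) or Decapping Pyrophosphohydrolase replicate 2 (0.972), where its fold was 0.03.

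Taken as classes, transfer RNA genes had 157 and 94.3 CPM with Decapping Pyrophosphohydrolase, against 46.7 and 28.6 CPM with TAP, a rise of 2.01 ± 0.21 (edgeR, adjusted p = 8.11e-08). Protein genes had 60.9 and 47.4 CPM with Decapping Pyrophosphohydrolase, against 25.0 and 20.03 CPM with TAP, a rise of 1.59 ± 0.18 (edgeR, adjusted p = 3.8e-07). Intergenic positions had 10.1 and 10.3 CPM with Decapping Pyrophosphohydrolase, against 7.08 and 1.14 CPM with TAP, a rise of 1.22 ± 0.35 (edgeR, adjusted p = 0.00599), which was not called by DESeq2 (adjusted p = 0.066). With 0 nt upstream of genes the intergenic change was 0.09 (edgeR, adjusted p = 0.814), and without TAP replicate 1 it was 3.42. Every Decapping Pyrophosphohydrolase library was above every TAP library in these 3 classes. In the same fit the median was -0.38 over nuclear 5' regions and 0.56 over nuclear gene bodies. Of all calls 51.2% were higher, and without TMM scaling 23.7% were, with the median of all features at -0.32.

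Against Cap-Clip, Decapping Pyrophosphohydrolase was higher at transfer RNAs and protein genes and lower at the 21S_RRNA start. Of 10 mitochondrial genes tested, 8 were higher, where 17.0% of all features were: 15S_RRNA, COX1, OLI1 and 5 transfer RNA genes. Leaving aside tV(UAC)Q and tW(UCA)Q, which passed the filter only through the Decapping Pyrophosphohydrolase libraries, 6 of 8 were higher. The 6 include tQ(UUG)Q, which reached the filter's level in both Decapping Pyrophosphohydrolase libraries and in TAP replicate 1, but in no Cap-Clip library. Of the groups compared here it thus reached the level only with Decapping Pyrophosphohydrolase. Its fold change of 3.81 ± 0.56 (log2, SE) is given as a description. As a description, the fold change was 4.07 at tV(UAC)Q and 1.86 at tW(UCA)Q. OLI1 rose by 2.34 ± 0.30 and tD(GUC)Q by 2.12 ± 0.27 (edgeR, adjusted p = 4.14e-06 and 3.88e-06). The rises of tE(UUC)Q (1.05 ± 0.22, edgeR, adjusted p = 0.00078), 15S_RRNA (0.82 ± 0.22, 0.00483) and COX1 (0.60 ± 0.21, 0.0289) ended when Cap-Clip replicate 2 was left out. Those of 15S_RRNA and COX1 also ended without Decapping Pyrophosphohydrolase replicate 2 (0.109 and 0.133), that of COX1 without TAP replicate 2 (0.0722), and both when library totals were used without TMM scaling, and with DESeq2. Of all calls in this comparison 48.1% were higher, and without TMM scaling 19% were.

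The 21S_RRNA start went the other way. Of 7 positions tested, 4 were higher with Decapping Pyrophosphohydrolase, where 17.4% of all positions were, and all 4 were transfer RNA first bases. Of the 4 positions that did not need the Decapping Pyrophosphohydrolase libraries to pass the filter, 2 were higher, tD(GUC)Q +1 (2.19 ± 0.30, edgeR, adjusted p = 7.35e-07) and tE(UUC)Q +1 (1.04 ± 0.25, 0.00151). The call at tE(UUC)Q +1 ended without Cap-Clip replicate 2 (0.148). The fold change was 3.91 at tV(UAC)Q +1 and 3.85 at tQ(UUG)Q +1, as a description. The 1 lower position, where 16.0% of all positions were lower, was the 21S_RRNA end at -1, which fell by 1.71 ± 0.34 on the log2 scale (edgeR, adjusted p = 0.000169). Its change was -1.05 without Decapping Pyrophosphohydrolase replicate 1 and -3.34 without replicate 2. The 15S_RRNA end at -76 was not called (-0.80 ± 0.33, edgeR, adjusted p = 0.0603), and the nonanucleotide at 46079 had a change of the other sign (1.17 ± 0.55, not called, 0.0989). Summed, the nonanucleotide ends had 25.7 and 95.4 CPM with Decapping Pyrophosphohydrolase, against 261 and 195 CPM with Cap-Clip, a fold change of -1.49 ± 0.30 (edgeR, adjusted p = 0.000583), which was -0.94 without Decapping Pyrophosphohydrolase replicate 1 and -2.78 without replicate 2. The first bases of transfer RNAs had 132 and 76.2 CPM with Decapping Pyrophosphohydrolase, against 37.8 and 36.9 CPM with Cap-Clip, a rise of 1.80 ± 0.22 (edgeR, adjusted p = 2.64e-06). Both sums were added after the data were seen. DESeq2 did not call the change at the 21S_RRNA end (adjusted p = 0.139), in the sum of nonanucleotide ends (0.101) or at tE(UUC)Q +1 (0.0693).

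The balance between the 2 kinds of landmark is measured within the mitochondrial tags, so the number of nuclear tags does not enter it. Among tags at either landmark, nonanucleotide ends were 16.3% and 55.6% with Decapping Pyrophosphohydrolase, 87.3% and 84.1% with Cap-Clip, 66.5% and 68.7% with TAP, and 14.9% and 43.8% without enzyme. The Cap-Clip libraries were highest, the TAP libraries came next, and the Decapping Pyrophosphohydrolase and no-enzyme libraries overlapped each other below both. The Decapping Pyrophosphohydrolase replicates were far apart. The mean difference was 18.1 points between Cap-Clip and TAP, -49.8 points between Decapping Pyrophosphohydrolase and Cap-Clip, and -31.6 points between Decapping Pyrophosphohydrolase and TAP. Against no enzyme it was 6.66 points for Decapping Pyrophosphohydrolase, 56.4 points for Cap-Clip and 38.3 points for TAP. A 2-sided exact permutation test gave p = 0.33 for each pair but Decapping Pyrophosphohydrolase and no enzyme (p = 0.667), and 0.33 is the smallest p that 2 libraries against 2 allow. Adjusted over the 6 pairs, the smallest was 0.4.

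Within the ribosomal RNA genes the share of tags at the promoter start had the same pattern. At 21S_RRNA it was 15.5% and 37.3% with Decapping Pyrophosphohydrolase, 83.5% and 70.6% with Cap-Clip, 71.1% and 66.1% with TAP, and 5.76% and 40.0% (6 of 15 tags) without enzyme. At 15S_RRNA it was 14.8% and 28.2% with Decapping Pyrophosphohydrolase, 78.0% and 71.8% with Cap-Clip, 61.7% and 66.7% with TAP, and 10.7% and 33.3% (1 of 3 tags) without enzyme. Cap-Clip and TAP overlapped at 21S_RRNA (difference 8.42 points, exact permutation p = 0.667) and did not overlap at 15S_RRNA (10.7 points, exact p = 0.33). Decapping Pyrophosphohydrolase lay below both at either gene, with differences of -50.7 points from Cap-Clip and -42.3 points from TAP at 21S_RRNA, and of -53.4 and -42.7 points at 15S_RRNA. It overlapped the libraries without enzyme at both genes.

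**Figure D5:**
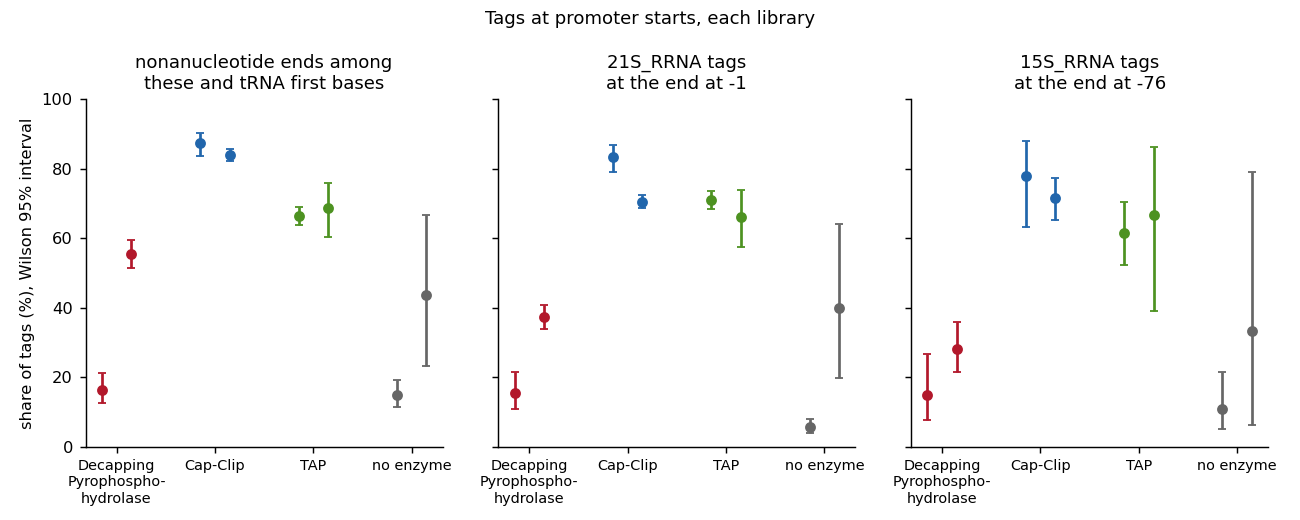
Share of tags (%) in each of the 8 libraries with its Wilson 95% interval, in the order Decapping Pyrophosphohydrolase, Cap-Clip, TAP and no enzyme. The left panel shows nonanucleotide ends among these and transfer RNA first bases, the middle panel the 21S_RRNA end at -1 and the right panel the 15S_RRNA end at -76, and Cap-Clip and TAP lie above Decapping Pyrophosphohydrolase and no enzyme in all 3, with wide intervals for no-enzyme replicate 2.

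As a share of all tags, the mitochondrial genome held 0.0359% and 0.0400% with Decapping Pyrophosphohydrolase, 0.0385% and 0.0352% with Cap-Clip, 0.0189% and 0.0128% with TAP, and 0.172% and 0.0471% without enzyme. Both no-enzyme libraries were above all others, the TAP libraries below all others, and Decapping Pyrophosphohydrolase and Cap-Clip overlapped. The exact permutation test again gave its smallest p of 0.33 for the pairs that did not overlap, and 0.667 for Decapping Pyrophosphohydrolase and Cap-Clip. In edgeR the sum over the genome was higher with Cap-Clip than with TAP by 1.26 ± 0.18 (adjusted p = 0.00126), and with Decapping Pyrophosphohydrolase than with TAP by 1.63 ± 0.18 (adjusted p = 2.16e-07), while Decapping Pyrophosphohydrolase and Cap-Clip were not told apart (0.37 ± 0.18, adjusted p = 0.108). The call of Cap-Clip against TAP ended without TAP replicate 2 (adjusted p = 0.221), without Cap-Clip replicate 1 (0.0683) and with all 8 libraries (1). With the replicate number as a block, the difference between Decapping Pyrophosphohydrolase and Cap-Clip was called (0.38, edgeR, adjusted p = 0.0442).

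Within the mitochondrial tags, 21S_RRNA took 28.1% and 51.3% with Decapping Pyrophosphohydrolase, 71.8% and 69.3% with Cap-Clip, 53.1% and 55.6% with TAP, and 41.3% and 39.5% without enzyme. Transfer RNA genes took 43.7% and 23.5% with Decapping Pyrophosphohydrolase, against 11% and 12.3% with Cap-Clip. With TAP they took 24.7% and 22.4%, and without enzyme 22.96% and 23.7%. The Cap-Clip libraries were thus below all others, and the other groups overlapped. Protein genes took 17.0% and 11.8% with Decapping Pyrophosphohydrolase, 7.36% and 8.93% with Cap-Clip, and 13.2% and 15.7% with TAP. Here too the Cap-Clip libraries were lowest, and those of Decapping Pyrophosphohydrolase and TAP overlapped. Without enzyme, protein genes took 29.7% and 28.9%, above all 6 enzyme-treated libraries. The differences in 21S_RRNA share were 16.2 points between Cap-Clip and TAP and 30.2 points between Cap-Clip and no enzyme (exact permutation p = 0.33 in each). As the 21S_RRNA start lies in the upstream window, these shares change direction if that window is not counted.

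Against no enzyme, every tested mitochondrial gene that was called was lower with an enzyme, in a table where nuclear gene bodies were lower too. With Decapping Pyrophosphohydrolase 7 of 12 genes tested were lower, with Cap-Clip 11 and with TAP 11, where 46.9% of all features were lower in each of the 3 comparisons. COX2 passed the filter only through the no-enzyme libraries, and of the 11 other genes 6, 10 and 10 were lower. Among these others, tC(GCA)Q, tK(UUU)Q, tQ(UUG)Q, tV(UAC)Q and tW(UCA)Q reached the filter's level, here 5.655 CPM, in no Cap-Clip or TAP library. In the comparisons of Cap-Clip and TAP, only the no-enzyme side of these genes was thus at that level, so their calls there add no support. The genes that reached it on both sides were 15S_RRNA, 21S_RRNA, COX1, OLI1, tD(GUC)Q and tE(UUC)Q. All of them were lower with TAP, and all but 21S_RRNA with Cap-Clip. With the replicate number as a block, 4 genes in place of 7 were called with Decapping Pyrophosphohydrolase. In these fits the median of nuclear gene bodies was -3.62, -3.76 and -3.90, that of nuclear 5' regions 1.46, 2.09 and 2.21, and that of the mitochondrial genes -1.60, -2.71 and -2.69, in the order Decapping Pyrophosphohydrolase, Cap-Clip and TAP (log2). The 3 comparisons share the no-enzyme libraries. COX1 was lower with every enzyme, at -3.26 ± 0.48, -3.48 ± 0.49 and -3.99 ± 0.49 (edgeR, adjusted p = 1.05e-06, 4.09e-07 and 6.99e-08). The sum of protein genes changed by -2.69 ± 0.57, -3.54 ± 0.60 and -3.94 ± 0.60 (edgeR, adjusted p = 0.00016, 6.18e-06 and 1.41e-06).

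The transfer RNA genes were lower with Cap-Clip (-2.68 ± 0.61, edgeR, adjusted p = 0.000321) and TAP (-2.84 ± 0.61, 0.000155). For tV(UAC)Q the change was -2.89 ± 0.54 with Decapping Pyrophosphohydrolase (edgeR, adjusted p = 2.81e-05), and -0.60 without no-enzyme replicate 1. As a description, the change of tV(UAC)Q was -6.54 ± 0.70 with Cap-Clip and -6.50 ± 0.67 with TAP. In these comparisons only its no-enzyme side reached the filter's level. With TAP, 15S_RRNA changed by -2.91 ± 0.50 and 21S_RRNA by -2.43 ± 0.75 (edgeR, adjusted p = 8.28e-06 and 0.00495). The call at 21S_RRNA ended when either TAP library was left out. The nonanucleotide ends went against this trend with Cap-Clip, where they rose by 1.66 ± 0.66 (edgeR, adjusted p = 0.0226), at 261 and 195 CPM against 65.2 and 86.7 CPM without enzyme. Their sum was added after the data were seen, and neither of its main ends was called alone with Cap-Clip. The 21S_RRNA end at -1 changed by 1.93 ± 1.14 (edgeR, adjusted p = 0.12) and the 15S_RRNA end at -76 by 1.25 ± 0.68 (0.0936). Of the mitochondrial genes tested, 0 were higher with any enzyme than without, where 17.8%, 35.0% and 37.9% of all features were, and 8, 11 and 11 had an unadjusted p under 0.05. With TMM scaling the changes of 15S_RRNA and 21S_RRNA with TAP, of the transfer RNA genes with Cap-Clip, and of tV(UAC)Q and the protein genes with Decapping Pyrophosphohydrolase kept their sign and were not called. The rise of the nonanucleotide ends was not called when any 1 of 5 libraries was left out, with adjusted p between 0.0537 and 0.113.

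These calls rest largely on no-enzyme replicate 1. Without it, 1, 2 and 2 genes were called in place of 7, 11 and 11. Of single positions, 4, 8 and 7 of 10 tested were lower, where 5.96%, 9.19% and 9.56% of all positions were. None of the 10 was called higher, where 40.1%, 62.5% and 64.1% of all positions were, and without that library 0 were called in each comparison. The end 3 nt before exon 4 of COX1 and the first base of tK(UUU)Q passed the filter only through the no-enzyme libraries, and of the 8 other positions 2, 6 and 5 were lower. Among these others, the first bases of tC(GCA)Q, tQ(UUG)Q, tV(UAC)Q and tW(UCA)Q reached the filter's level in no Cap-Clip or TAP library. Of those that did reach it there, the first bases of tE(UUC)Q and tD(GUC)Q were lower with both enzymes. The main ends of 21S_RRNA and 15S_RRNA were not called. The first base of tV(UAC)Q changed by -3.23 ± 0.46 with Decapping Pyrophosphohydrolase (edgeR, adjusted p = 2.21e-06), and by -0.86 without no-enzyme replicate 1. As a description, its change was -6.74 ± 0.61 with Cap-Clip and -6.50 ± 0.57 with TAP. Over the whole genome only TAP was called (-2.80 ± 0.87, edgeR, adjusted p = 0.00484), against -1.54 ± 0.83 (0.102) with Decapping Pyrophosphohydrolase and -1.59 ± 0.83 (0.078) with Cap-Clip. The genome call with TAP ended with TMM scaling, with DESeq2 and when either TAP library was left out. The changes with Decapping Pyrophosphohydrolase and Cap-Clip turned in direction with TMM scaling. It put the median of all features at 2.14, 2.02 and 1.98 in place of -0.31, 0.25 and 0.38, and the share of higher among all calls at 59.0%, 53.8% and 53.2% in place of 27.5%, 42.7% and 44.6%.

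The nuclear genes that transcribe and process mitochondrial RNA went with the 5' regions of other nuclear genes. Of 30 such genes in the annotation, 26 were tested by their 5' regions. Against no enzyme, 6 were higher and 1 lower with Decapping Pyrophosphohydrolase, 18 higher and 1 lower with Cap-Clip, and 19 higher and 1 lower with TAP. Of all nuclear 5' regions, 33.8%, 67.2% and 72.9% were higher and 1.48%, 1.31% and 1.38% lower in these comparisons. The medians of the 26 were 1.28, 2.04 and 2.21, against 1.46, 2.09 and 2.21 for all nuclear 5' regions. MTF1, the partner of the mitochondrial RNA polymerase, rose by 3.49 ± 1.20, 3.87 ± 1.15 and 3.93 ± 1.14 (edgeR, adjusted p = 0.0134, 0.00382 and 0.00298). This rests on 0 and 1 tag without enzyme. That 1 tag is 12.4 CPM, above Decapping Pyrophosphohydrolase replicate 2 at 12.1 CPM. The member that was lower in each was PET127, a gene of mitochondrial RNA 5' end processing, with 47 and 0 tags without enzyme. Between enzymes, 3 were higher and 13 lower with Decapping Pyrophosphohydrolase than with TAP, 2 higher and 8 lower than with Cap-Clip, and 0 differed between Cap-Clip and TAP. Of all nuclear 5' regions, 12.1% were higher and 40.9% lower with Decapping Pyrophosphohydrolase than with TAP, and 10% higher and 32.8% lower than with Cap-Clip.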

How the data were processed

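Tags were counts of sequenced 5' ends per position and strand in 8 libraries, deposited by the authors as 1 table of whole-number counts with no normalization. Reads were aligned with Novoalign to R64 (sacCer3), per the submitters' processing notes; the Novoalign version and whether the random barcodes were collapsed are not given in the sources used here, so tags may not be independent molecules. All count columns matched a sample. The members and gene lists were chosen with earlier results of these data known. Nuclear protein genes were split into 5' regions and gene bodies on the sense strand, and mitochondrial positions went by strand to a gene from 200 nt upstream to its end. These, nuclear noncoding genes and the mitochondrial sums were tested in 1 table of features. Nuclear tags outside such windows fell in no feature, the sums repeat tags of the genes, and library totals counted all tags. Features and positions passing edgeR's filter on low counts were tested with edgeR's quasi-likelihood test and Benjamini-Hochberg adjustment (called under 0.05): pairs of enzymes over 6 libraries with TMM scaling, and enzymes against no enzyme over 8 libraries with library totals. The sums of nonanucleotide ends and of transfer RNA first bases were added after the data were seen. Shares were compared with 2-sided exact permutation tests, with Wilson 95% intervals, and 0 tags was read as up to 3 tags. Genes named were the rRNA genes, RPM1, genes called in a comparison, the main protein genes, and others with a mean of 1 CPM over enzyme-treated libraries or 20 tags; positions named were the 15 highest by mean CPM over those libraries and the strongest of each class and named gene, and others are marked as chosen after their values were seen. Each culture's RNA was divided between the 4 treatments, per the labels, so same-numbered libraries are paired; their deviations correlated by -0.105 to 0.0927 across features, and the main fit had no block. On simulated counts with 200 features changed 4-fold, 130 were recovered for Cap-Clip against TAP (8764 features, 3 false calls), 83 for TAP against no enzyme (9564 features, 2 false calls) and 144 of single positions for Cap-Clip against TAP (4607 positions, 5 false calls). The simulation gave all groups the same dispersion. The spread between real replicates, as chi-square per degree of freedom, was 31.9 without enzyme and 6.84 to 8.17 with enzymes. The simulated false calls therefore do not measure those against no enzyme. R 4.3.3, edgeR 4.0.16, DESeq2 1.42.0, Python 3.11.15, pandas 2.3.3, NumPy 2.4.6, SciPy 1.17.1 and matplotlib 3.10.9 were used. Alternatives were other scalings, DESeq2, no filter, other windows, a replicate block and leaving out each library.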

Additional observations from a re-analysis of the deposited data

How the results depend on the processing

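Counts of called mitochondrial genes moved as follows. For Cap-Clip against TAP the count of 2 became 1 with DESeq2, 0 with all 8 libraries in the fit, 1 with 0 nt upstream and 1 with positions of at least 2 tags, and it was 1 to 3 when a library was left out. With no filter on low counts it was 15 for Decapping Pyrophosphohydrolase against TAP, and against no enzyme 12 with Decapping Pyrophosphohydrolase, 19 with Cap-Clip and 22 with TAP. Against no enzyme, Cap-Clip and TAP gave 5 genes each with TMM and 3 each with DESeq2. Leaving out a library gave 4 to 11 genes for Decapping Pyrophosphohydrolase against Cap-Clip, and against no enzyme 1 to 12 with Decapping Pyrophosphohydrolase, 2 to 15 with Cap-Clip and 2 to 15 with TAP. The cause of these changes was not tested beyond the settings' own construction.

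The sum over the mitochondrial genome was not called with all 8 libraries for Cap-Clip (1.28) or Decapping Pyrophosphohydrolase (1.58) against TAP. Against no enzyme it changed sign with Decapping Pyrophosphohydrolase (0.75 with TMM, 0.56 with DESeq2) and with Cap-Clip (0.45 and 0.42), and with TAP it was -0.83 with TMM and -0.75 with DESeq2, not called. With 0 nt upstream it was called with Decapping Pyrophosphohydrolase (-1.55) and with Cap-Clip (-1.59), and Decapping Pyrophosphohydrolase minus Cap-Clip turned to -0.033. Leaving out a library gave 1.08 to 1.504 for Cap-Clip minus TAP, 0.21 to 0.49 for Decapping Pyrophosphohydrolase minus Cap-Clip, and against no enzyme -2.17 to -0.31 with Decapping Pyrophosphohydrolase, -2.22 to -0.36 with Cap-Clip and -3.42 to -1.55 with TAP.

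Counts of called positions with DESeq2 were 0 for Cap-Clip against TAP, 3 for Decapping Pyrophosphohydrolase against TAP and 3 against Cap-Clip. With tags within 2 nt summed they were 10 for Decapping Pyrophosphohydrolase against TAP and 10 against Cap-Clip, and against no enzyme 9 with Decapping Pyrophosphohydrolase, 15 with Cap-Clip and 15 with TAP; TMM gave 4 with Cap-Clip. Leaving out a library gave 0 to 2 for Cap-Clip against TAP, 6 to 13 for Decapping Pyrophosphohydrolase against TAP, 5 to 11 against Cap-Clip, and against no enzyme 0 to 12, 0 to 19 and 0 to 19 with Decapping Pyrophosphohydrolase, Cap-Clip and TAP.

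Differences in share turned as follows. The mitochondrial share of Decapping Pyrophosphohydrolase minus Cap-Clip was -0.0033 points with positions of at least 2 tags, and -0.000909 to 0.00319 when a library was left out. With 0 nt upstream, which leaves out the 21S_RRNA end at -1, the 21S_RRNA share differed by 11.8 points for Decapping Pyrophosphohydrolase minus Cap-Clip, -0.94 for Cap-Clip minus TAP, -15.2 for Cap-Clip minus no enzyme and -14.2 for TAP minus no enzyme. For Decapping Pyrophosphohydrolase minus no enzyme, leaving out a library gave -13.0 to 26.3 points for nonanucleotide ends among landmark tags, -13.6 to 20.6 for the 21S_RRNA main end and -11.8 to 10.8 for the 15S_RRNA main end, which was 0.149 with tags within 2 nt summed. The main-end shares could not be computed with 0 nt upstream, since both ends lie upstream of the annotated starts.

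With the replicate block, which pairs same-numbered libraries, Decapping Pyrophosphohydrolase minus Cap-Clip over the genome was 0.38 and called, and 4 genes were called for Decapping Pyrophosphohydrolase against no enzyme; the other counts of calls and genome sums kept their side of the threshold or stayed within 1.5 times. Only single genes, classes and ends called in the main fits were followed, and settings in which one was not tested are not counted. Of their alternative values, 364 kept the call and 43 lost it, and some also lost it with a library left out, with 0 reversed. Changes not called in the main fits were not followed. Among genome sums and differences in share, 11 alternative values were reversed, and 8 with a library left out. Depth limits the rest: no-enzyme replicate 2 held 38 mitochondrial tags, and 1560 positions had 1 tag.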

Other observations

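Tags on 21S_RRNA, apart from its start, were not even along the gene. Counted from the annotated first base in steps of 200 nt, there were 325 tags from 0 to 199, 36 from 1000 to 1199 and 300 from 1600 to 1799, over 8 libraries. From 3200 to 3399, inside the intron, there were 0.

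Away from both landmarks, of the 2198 positions with a tag on the plus strand, 41.5% were A and 34.4% T at the position itself, and 44.1% were A and 34.1% T just before it, against 42.2% A and 40.7% T in the genome. G was 13.5% at the position, against 9.11% in the genome. Weighted by tags, the base at the position was A in 45.1%, G in 8.48% and T in 39.3% of such tags with Decapping Pyrophosphohydrolase, A in 39.2%, G in 16.2% and T in 34.3% with Cap-Clip, A in 40.5%, G in 18.6% and T in 28.9% with TAP, and A in 48.3%, G in 16.8% and T in 25.9% without enzyme. No test was made of these shares.

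On the minus strand, the transfer RNA gene tT(UAG)Q2, the only gene there, had 4 tags, of which 1 lay at its first base. The other minus-strand tags were 18 at the nonanucleotide at 54840, 1 at 54838, and 1 or 2 at each of 6 other positions.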
